A study of Coffea arabica with 8 samples.

Results

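The probes described here are those of a coffee (Coffea arabica) shoot tip comparison whose log2 ratio lay below the median of its array on all 8 two-colour arrays, which is the likely sign of a lower transcript level in the cultivar Tall Mokka than in the cultivar Typica. They were chosen by these ratios themselves: from each array the median over its measured probes was subtracted, and a probe was kept if it had a value on all 8 arrays and each centred value was below 0. This gave 190 probes out of 10312 with all 8 values, in a table of 15264. The remaining 4952 probes lacked a value on at least 1 array and could not be members. Since the ratios chose the members, their sign and size are given as a description and support nothing about the cultivar difference.

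Tall Mokka and Typica shoot tips, each with the first leaf pair still closed, were taken from 6 and 8 trees that had been propagated clonally and grown in 1 field station. The labels give no tree age and name no treatment. Their RNA made up the pools MA and MB (Tall Mokka, 3 trees to a pool) and KA and KB (Typica, 4 trees to a pool). A pool of either cultivar was hybridised to every array, 1 in Alexa Fluor 555 and 1 in Alexa Fluor 647, and the sample descriptions put MA × KA on 4 arrays, MA × KB on 2 and MB × KB on 2. The numbers 1 to 4 in the sample titles mark arrays that exchange the dyes (1 for MA × KB, 2 and 4 for MA × KA, 3 for MB × KB), and the labels call the arrays numbered 4 technical replicates of those numbered 2. Because a pool holds several trees and the arrays share pools, the 8 arrays are not 8 independent comparisons. The design text also lists a pairing of MB with KA, which no sample description carries.

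The shoot tip holds the shoot apical meristem, the group of dividing cells from which leaves and stem arise, together with young leaves. On a two-colour array the RNAs of both cultivars compete for the same spot, so that a ratio compares them within 1 hybridisation. A dye can be taken up or read differently from gene to gene, and exchanging the dyes between arrays separates such a dye effect from a difference between the cultivars. A gene with less transcript in Tall Mokka would be low in both dye arrangements, which is why a sign shared by all 8 arrays is of interest. Fewer cells of a type and less RNA per cell cannot be told apart in such pooled tissue.

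No source used here pairs the identifiers of the table with gene names. None of the 15264 identifiers, and so 0 of the 190 members, matched an entry of the coffee gene table (80883 genes), so members are named by identifier and nothing is said of their function, nor could markers of shoot tip cells be looked up. The array and the species of its probes are not named in the sources used here. The direction of the deposited ratios is not stated either. Where Tall Mokka was in Alexa Fluor 555 (4 arrays), 100% of the inverse ratios, among values under 2-fold, fell on steps of 0.001 (tolerance 0.02 of a step), and where Typica was in that dye (the other 4) 100% of the ratios themselves did. This rounding is what a ratio of the same channel order on every array would leave if it had been inverted for the arrangement with Tall Mokka in Alexa Fluor 555. "Lower" below means lower in Tall Mokka, which holds if that first ratio was Alexa Fluor 647 over Alexa Fluor 555. With the opposite channel order every sign turns, and the members would be higher in Tall Mokka.

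The arrays measured between 12997 and 14499 probes. The SD of the log2 ratio over the 10312 complete probes was 1.58 on 1 array (MB × KB, Tall Mokka in Alexa Fluor 555), called the widest array below, and 0.46 to 0.72 on the other 7. The table has no spot intensities, so the distance of a probe from background is unknown, and the number of arrays limits the precision.

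The 190 members were lower in Tall Mokka by small amounts. Each pool pair was averaged with equal weight for its 2 dye arrangements, and the mean of the 3 pairs had a median of -0.38 on the log2 scale over the members, which is a 1.30-fold lower level, with a middle range of -0.52 to -0.31. Over all 10312 complete probes the same mean had a median of -0.01 and a middle range of -0.19 to 0.18. The mean was at least 2-fold lower for 9 of the 190 members (4.74%), beside 197 of all complete probes (1.91%), a difference that the choice of members favours. At 1.5-fold the counts were 31 members (16.3%) and 615 of all complete probes (5.96%), which the choice of members favours too. Members made up 1.84% of the complete probes, beside 201 probes that lay above the median on every array.

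On single arrays the median of the members ran between -0.20 and -0.35 on 7 arrays and was -0.66 on the widest array. The values were most modest on the 2 arrays of MA × KA number 2, with medians of -0.20 with Tall Mokka in Alexa Fluor 555 and -0.22 with Typica in it. Their repeats, MA × KA number 4, had medians of -0.33 and -0.30. For MA × KB the medians were -0.33 with Tall Mokka in Alexa Fluor 555 and -0.28 with Typica in it, and for MB × KB -0.66 and -0.35. Ranked among all complete probes of an array, the median member stood at percentile 16.6 to 17.0 on the arrays numbered 4 and at 19.7 to 28.5 on the others, and on the widest array it stood at 25.1. The larger ratios on the widest array were therefore not matched by a more extreme rank.

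**Figure D1:**
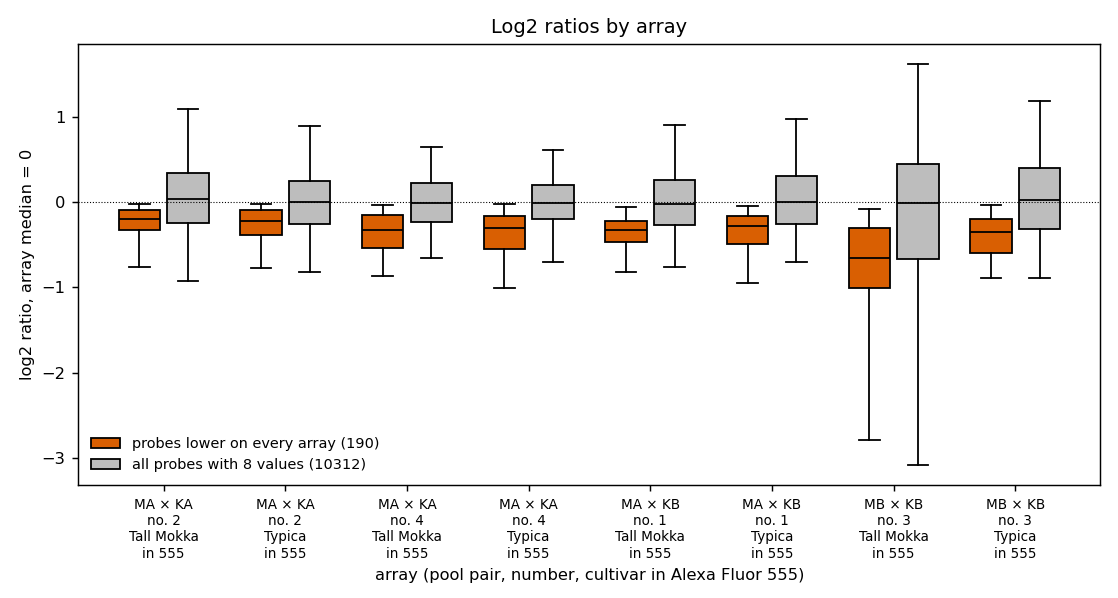
Centred log2 ratio (vertical axis, array median at 0) of the 190 members and of all 10312 complete probes on each of the 8 arrays; boxes give quartiles and medians and whiskers the 5th and 95th percentiles of probes. The members lie below 0 on each array because they were chosen so, with medians of -0.20 to -0.35 on 7 arrays and -0.66 on the widest one.

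By pool pair, the members had a median of -0.27 in MA × KA, of -0.31 in MA × KB and of -0.53 in MB × KB. At least 2-fold lower were 5 members (2.63%) in MA × KA, 2 (1.05%) in MA × KB and 22 (11.6%) in MB × KB. Of all complete probes, 81 (0.785%), 88 (0.853%) and 912 (8.84%) were 2-fold lower in the same order. The choice of members favours their shares. No member was 2-fold lower in all 3 pairs. MB × KB was the lowest of the 3 pairs for 119 members, MA × KB for 54 and MA × KA for 17. Without the widest array these counts were 81, 71 and 38. The lowest pair was not counted for all complete probes, among which MB × KB also had the most 2-fold lower probes. The order of the pairs is therefore not read as a trait of the members.

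The size ranking of the members rested largely on the widest array. The lowest single value of a member fell on that array for 97 of the 190, a count that was not made for all complete probes. At least 2-fold lower there were 49 members, against 1 to 11 on each of the other arrays. Of all complete probes, 1748 (17.0%) were at least 2-fold lower on the widest array, against 192 to 462 on each of the others, so the larger count there was shared by the whole table. At least 8-fold lower were 9 members there, where 527 of all complete probes were also 8-fold lower, while on the other arrays together 1 member reached that size. Of all complete probes, 3 to 67 were 8-fold lower on each of those other arrays, so this contrast too was shared by the whole table. Of the 9 members with a 2-fold lower mean, 7 had their lowest value on the widest array, and without it 1 of the 9 was still 2-fold lower. No other member was, so that 1 of the 190 stood beside 72 of all 10312 complete probes. The members then had no larger share of 2-fold lower means than all probes. The median over the members was -0.38 with that array and -0.35 without it, so the typical size hardly moved.

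The members of lowest mean show this dependence. STMIT74 had a lowest value of -7.35, a median of -0.72 and a highest value of -0.39 over the 8 arrays, and the mean of its pool pairs was -1.99 ± 1.79 (SD, n = 3 pairs). STMID40 ran from -7.38 over a median of -0.97 to -0.32, with a mean of -1.88 ± 1.78 (SD, n = 3 pairs). In STMJN26 the values were -7.31, -0.76 and -0.17 in the same order, with a mean of -1.70 ± 1.79 (SD, n = 3 pairs). All of these lowest values came from the widest array, and the next lowest were -2.06 for STMIT74, -1.06 for STMID40 and -1.34 for STMJN26. STMIY37 had -6.54 on the widest array, -1.56 on MA × KA number 4 with Typica in Alexa Fluor 555, and -0.44 to -0.23 on the other 6. Without the widest array the means of these 4 probes were -0.88, -0.73, -0.52 and -0.44, and STMIT74 and STMID40 remained the lowest of the 4.

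STMJB31 was the member that stayed 2-fold lower without the widest array, and is named after its values were seen. Its 8 values ran from -3.42 to -0.14 with a median of -1.34, a 2.53-fold lower level. It was lower by much in MA × KA (pair mean -1.72) and MB × KB (-1.78) and by little in MA × KB (-0.18), where its arrays read -0.23 and -0.14. Its low values were therefore not shared by the 3 pool pairs.

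The most even members, those with a mean of -0.5 or below and the smallest SD over the 8 arrays relative to their mean, were of moderate size. STMHX86 read -0.49 and -0.72 on MA × KA number 2 (Tall Mokka and then Typica in Alexa Fluor 555), -0.47 and -0.60 on number 4, -0.51 and -0.50 on MA × KB and -0.66 and -0.91 on MB × KB. Its mean over the pairs was -0.62 ± 0.15 (SD, n = 3 pairs), a 1.54-fold lower level, and no other member had a highest value as far below 0 (-0.47). STMCX38 was lower by more: its values ran from -1.41 to -0.43 with a median of -0.95, and its mean was -0.88 ± 0.12 (SD, n = 3 pairs), or 1.85-fold lower. Unlike the probes of lowest mean, it had a pair mean of similar size in each pair, -0.98 in MA × KA, -0.76 in MA × KB and -0.92 in MB × KB. STMER85 ran from -0.88 over a median of -0.50 to -0.33, and its mean was -0.60 ± 0.13 (SD, n = 3 pairs). STMEJ44 had a lowest value of -0.81, a median of -0.58 and a highest value of -0.24, with a mean of -0.56 ± 0.19 (SD, n = 3 pairs). In these 4 probes the widest array held the lowest value only for STMCX38.

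**Figure D2:**
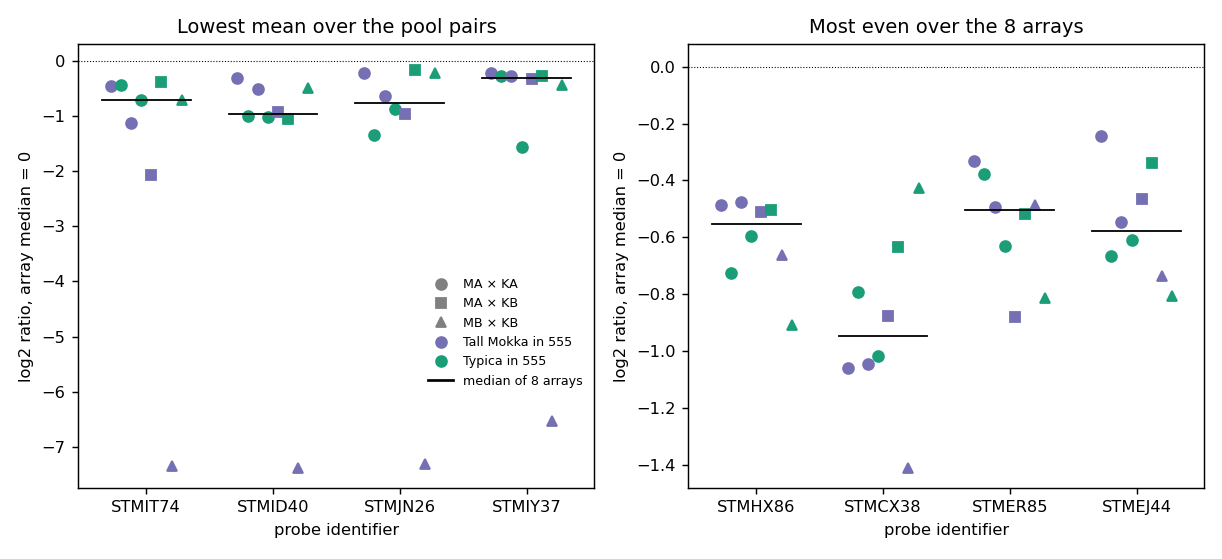
Centred log2 ratio (vertical axis) of the 4 members of lowest mean and the 4 most even members on each of the 8 arrays; symbols give the pool pair, colours the dye arrangement and bars the median of 8 arrays. One triangle per probe in the left panel, the widest array, lies between -7.38 and -6.54, far from the other 7 arrays, while the values in the right panel stay between -1.41 and -0.24.

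Many members passed the rule narrowly. The highest of the 8 values was within 0.05 of 0 for 86 members and within 0.1 for 131, and its median over the members was -0.06. On every array below -0.1 were 59 members, below -0.25 were 10 and below -0.5 none. Just inside the threshold, STMCH58 and STMCQ07 had a highest value of -0.0014 on MA × KA number 2 with Tall Mokka in Alexa Fluor 555, and STMDT43 and STMIZ55 had -0.0014 on MA × KA number 4 with the same dye arrangement. Just outside, STMGR13, STMHY07 and STMJN61 were below 0 on 7 arrays and equal to the median on the last, and STMEZ13 was 0.0014 above it on MA × KA number 2 with Tall Mokka in Alexa Fluor 555. The means over the pairs were -0.35, -0.32, -0.45 and -0.48 for the 4 members and -0.96, -0.56, -0.45 and -0.35 for the 4 probes outside, in the order named. A further 579 probes were lower on 7 of the 8 arrays, 197 of them with a highest value under 0.1. The border of the set therefore runs through probes of like values.

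How far the lower values carried over to an array that had no part in the choice was read by leaving out each array in turn. Of the probes below 0 on the other 7 arrays, 60.7% to 86.0% were also below 0 on the array left out, with a mean of 73.3% ± 8.4 (SD, n = 8 arrays). Of all complete probes, 46.4% to 52.2% lay below 0 on these arrays (mean 49.9% ± 1.8). The highest share was read on MA × KA number 4 with Typica in Alexa Fluor 555, where 190 of 221 probes were also lower. The lowest was read on MA × KA number 2 with Tall Mokka in that dye, with 190 of 313. Arrays share pools and trees, so these shares were not tested.

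The carry-over differed by dye arrangement. Probes chosen on the 3 other arrays of the same arrangement were below 0 on the array left out in 66.8% ± 3.6 of cases (SD, n = 8 arrays, range 61.8% to 71.4%), and this share exceeded that of all complete probes on 8 of 8 arrays. For probes chosen on the 4 arrays of the opposite arrangement the share was 52.1% ± 8.0 (range 43.1% to 65.2%), above that of all complete probes on 4 of 8 arrays and below it on the other 4. With Tall Mokka in Alexa Fluor 555, 1259 probes were lower on all 4 arrays, and 190 of these (15.1%) were lower on all 4 arrays with Typica in that dye, where 11.5% of all complete probes were. Chosen the other way round, 1181 probes were lower with Typica in Alexa Fluor 555, and the same 190 were 16.1% of them, beside 12.2% of all complete probes. The 190 are thus 3.64 and 3.88 percentage points above the share of all probes, and most probes that were lower in 1 arrangement were not lower throughout the other.

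**Figure D3:**
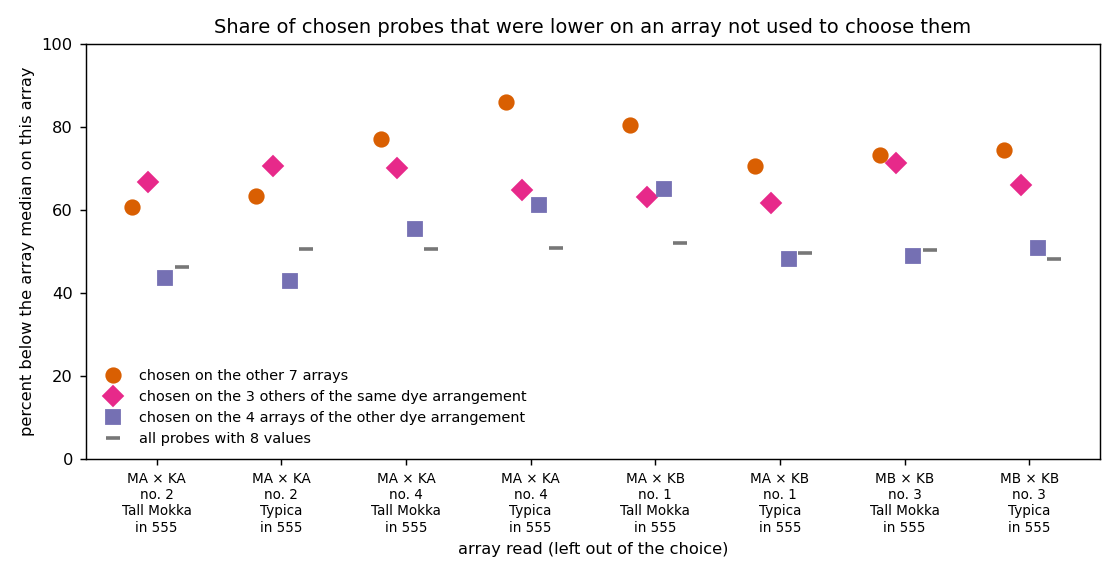
Percent of probes below the array median (vertical axis, from 0) on each array read, for probes chosen on the other 7 arrays, on the 3 others of the same dye arrangement, on the 4 of the opposite arrangement, and for all complete probes. The squares for the opposite arrangement, 43.1% to 65.2%, lie on both sides of the bars for all probes, and the diamonds for the same arrangement, 61.8% to 71.4%, lie above them on 8 of 8 arrays.

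The difference between the dye arrangements within the members was then set beside that of all probes. It was computed as Tall Mokka in Alexa Fluor 555 minus Typica in Alexa Fluor 555 within each number and fitted with limma over all 10312 complete probes, and its p measures only the spread between hybridisations. No member passed an adjusted p of 0.05 (smallest 0.487), as did 0 of all probes (0%), and at an unadjusted p under 0.05 there were 0 members beside 1041 of all probes (10.1%). Choosing probes of 1 sign on every array holds the arrangements close together, so the lower count in the members is not independent of the rule. The difference was negative, that is, lower with Tall Mokka in Alexa Fluor 555, for 121 of the 190 members (63.7%), beside 51.7% of all complete probes. Its median over the members was -0.11 with the 4 numbers and -0.03 without number 3, which holds the widest array, and then 105 members were negative. The members with the smallest p were STMJJ67 and STMCJ85. STMJJ67 averaged -0.72 ± 0.33 with Tall Mokka in Alexa Fluor 555 and -0.27 ± 0.14 with Typica in it (SD, n = 4 arrays each), a difference of -0.45 ± 0.19 (SE) at an adjusted p of 0.487 in limma. STMCJ85 averaged -1.20 ± 0.81 and -0.61 ± 0.56 in the same order (SD, n = 4 arrays each), a difference of -0.59 ± 0.25 (SE) at an adjusted p of 0.487 in limma. Neither difference passed the test.

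Between pools of 1 cultivar the members differed less than all probes did. KA minus KB (both through MA) had an SD of 0.27 in the members and 0.52 over all complete probes, and 1 member (0.526%) beside 668 of all probes (6.48%) differed at least 2-fold. MA minus MB (both through KB) had an SD of 0.62 over the members and 0.95 over all complete probes, and 13 members (6.84%) beside 1803 of all probes (17.5%) differed at least 2-fold. Without the widest array, the SD of MA minus MB was 0.36 over the members and 0.80 over all probes. In that setting 1 member differed 2-fold, a count that was not made for all probes, so it is not compared. A shared sign on every array limits these distances, and each has 1 pool on either side, so no test was made. The values of the 190 members had a Spearman's rho of -0.11 to 0.32 (mean 0.15) between arrays, over the 28 pairs of arrays, and those of all complete probes -0.20 to 0.31 (mean 0.08). Probes on an array share its layout and pools.

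The members were unevenly spread over the probe identifiers, a property that the rule did not use but whose relation to the ratios was known from earlier results of these data. An identifier is 1 of 159 prefixes followed by a number from 1 to 96. In runs of 6 numbers, the first place (numbers 1, 7, 13 and so on) held 95 of the 190 members (50%, 95% Wilson interval 43.0% to 57.0%, which treats probes as independent), although it held 16.8% of the complete probes. The second place held 49 members, the third 26, the fourth 9, the fifth 6 and the sixth 5. As a share of the complete probes at each place this was 5.49%, 2.32%, 1.34%, 0.522%, 0.373% and 0.415%. The probes higher on every array ran the other way, with 5 of 201 at the first place, 15 at the second and 69 at the fourth. The members lay on 64 of the 96 numbers, and the fullest single number was 32, at the second place, with 9 members. Across blocks of 12 numbers the share was between 1.18% and 2.25% of the complete probes. Each block holds all places equally, so differences between places could not show there.

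**Figure D4:**
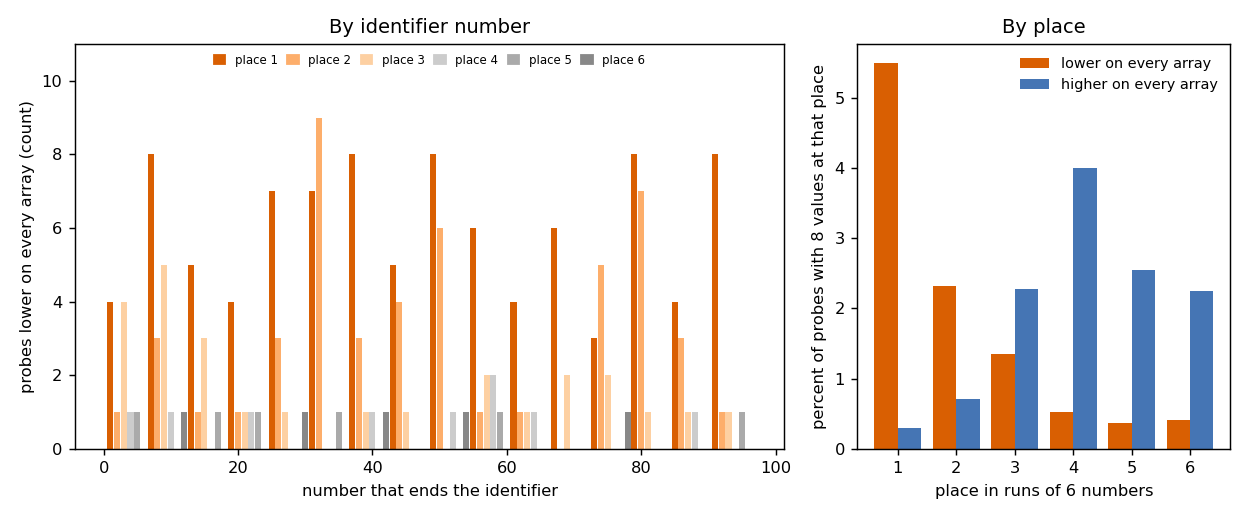
Left, count of members (vertical axis) by the number that ends the identifier, coloured by place in runs of 6; right, percent of the complete probes at each place (vertical axis) that were lower on every array and that were higher on every array. The share of lower probes is 5.49% at the first place and 0.415% at the sixth, and that of higher probes is 0.289% at the first place and 2.24% at the sixth.

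The ratios of all probes moved with the same places. Over all complete probes the median of the mean over the pairs was -0.20 at the first place, -0.08 at the second, 0.03 at the third, 0.09 at the fourth, 0.08 at the fifth and 0.06 at the sixth. At the first place the array medians were below 0 on 7 of 8 arrays, with -0.74 on the widest array, -0.23 and -0.20 on the arrays numbered 4, and 0.01 on MB × KB with Typica in Alexa Fluor 555. At the fourth place they were above 0 on 8 of 8 arrays, from 0.01 to 0.22. Members at the first place had a median mean of -0.43, and those at the fourth place, of which there are 9, also had -0.43.

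When each array was first swept of the medians of its identifier prefixes and numbers, 162 probes were lower on every array, and 56 of them were among the 190 members (34.6% of the new set and 29.5% of the members). The first place then held 22 of the 162 (13.6%). Removing only the median of each place, an alternative chosen after seeing the data, gave 158 probes, with 65 of the members among them and 16 at the first place. After the removal of prefix and number medians, 187 of the 190 members had a mean below 0, with a median of -0.24 in place of -0.38, and 107 were below 0 on 7 or 8 arrays. The same ratios chose the members, so their sign after the removal is largely set by that choice and supports nothing. These counts are not set beside those of all complete probes. The size of the set and the carry-over to a left-out array (72.3% ± 7.8, SD, n = 8 arrays) thus changed little, and most of its members were replaced. STMHX86, STMCX38, STMEJ44, STMIT74, STMID40 and STMIY37 were below 0 on 8 arrays after the removal, STMER85 and STMJN26 on 7. The part of the spot layout or of the plates in these places was not tested, since the table gives neither.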

How the data were processed

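The authors deposited 1 log2 ratio between the channels per probe and array; the log2 scale was read from the values, and scanner, background correction, normalization and spot filter were not given in the sources used here. Cells reading null were missing. RNA was labelled indirectly as cDNA, per the labels' protocols. Each column was centred on its median, and dye arrangements within a pool pair had equal weight. Members and lists were chosen with earlier results of these data known. The difference between dye arrangements was the tested result (limma 3.58.1, R 4.3.3, Benjamini-Hochberg over 10312 probes), on 4 within-number differences. With the signs of 1 arrangement turned, which was also run, this fit is that of the cultivars, which chose the members, and nothing is read from its count. The labels name each array's dye-swap partner, so numbers pair arrays, and deviations of paired arrays from the mean of their arrangement correlated at r = -0.03 to 0.27. The fit and the member rule were run on simulated data with planted shifts larger than the typical values of the members. Such runs check only the code, and nothing about the members or the dye result is read from them. Prefix and number medians were removed in 3 sweeps. Descriptions used Python 3.11.15, pandas 2.3.3 and numpy 2.4.6. Named members are the 4 of lowest mean over the pairs, the 4 most even with a mean of -0.5 or below, the 4 nearest inside and outside the threshold (ties in order of identifier) and the 2 of smallest dye p. Gene lists and cell type markers could not be used without gene names. Other settings of centring, threshold, scaling, missing values, direction, averages and arrays were tried.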

Additional observations from a re-analysis of the deposited data

Results flagged for a closer look

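Values far from the rest of their group were sought by the gap of the highest or lowest array to its neighbour, relative to the whole range, at Dixon's 95% critical value, in 31 sets of arrays. Chance marks about 1 set in 20 of unselected values, a rate that does not hold here: the rule bounds the members at 0 from above, and the members of lowest mean were named for values that include the ones below. The widest array (MB × KB, Tall Mokka in Alexa Fluor 555) stood apart in 7 of these sets. Its median over the members was -0.66, with -0.35 as the next lowest of the 8 arrays, and its SD over the members was 1.19, with 0.45 as the next highest. Among named members it was far below the other arrays for STMIT74 (-7.35, next -2.06), STMID40 (-7.38, next -1.06), STMJN26 (-7.31, next -1.34), STMIY37 (-6.54, next -1.56) and STMIZ55 (-1.60, next -0.62). Over all 190 members, 37 had a lowest value that stood apart in this way, and for 32 of them (16.8% of members) it was the value on the widest array. Among all 10312 complete probes these counts were 1124 and 890 (8.63%), and the choice of members bears on the difference.

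Within the 4 arrays of MA × KA, STMIY37 was low on number 4 with Typica in Alexa Fluor 555 (-1.56, next -0.28). STMCX38 was less low on number 2 with Typica in that dye (-0.79, next -1.02).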

How the results depend on the processing

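The count of probes lower on every array was 190, and 126 with columns centred on their mean, 59 below -0.1, 10 below -0.25 and 0 below -0.5. It was 116, sharing no member, when the 4 Tall Mokka in Alexa Fluor 555 columns had their sign turned, and 201 with all 8 columns turned. On 4 arrays alone it was 1259 with Tall Mokka in Alexa Fluor 555 and 1181 with Typica in it. Leaving out 1 array or 1 number gave 221 to 479 (313 and 300 without the arrays of MA × KA number 2, 300 without number 4), as fewer arrays are asked to share a sign. Values as deposited gave 227, of which 173 were members. The median size was -0.38 and, with arrays divided by their MAD, -0.70 in MAD units. The SD of KA minus KB became 0.64 and that of MA minus MB 0.75 in those units. The share of members at the first place was 13.6% with prefix and number medians removed and 10.1% with place medians removed, and 39.4% (without the widest array; 42.7% without MA × KA number 4, Tall Mokka in Alexa Fluor 555) to 53.4% when 1 array was left out. The members at an adjusted p under 0.05 between dye arrangements numbered 0 in limma under all alternatives run. With no replicate block these were 0 members beside 3 probes of the whole table. The members at an unadjusted p under 0.05 were 0 beside 1041 of all 10312 probes, and 0 beside 1146 with no replicate block. They were 1 beside 1044 as deposited, 5 beside 823 with medians removed, and 0 to 6 beside 590 to 1280 without 1 number. With the signs turned the count was 131 beside 812, but that fit is the contrast of the cultivars, and the choice of members on these values produced the count, so it is no test. The 154 alternative means of the 14 named members were negative, but the rule fixed this sign for most. The rule left it open only with prefix and number medians removed, a mean for each of the 14. Members named for a low mean could hardly turn sign there, so nothing is read from it. Values as deposited moved every mean by the same small negative amount, as from -0.319 to -0.333 for STMCQ07. Signal over background is unknown here.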

Other observations

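The members came from 107 of the 159 identifier prefixes, and 55 prefixes held 1 member each. The most in a prefix was 6, in STMCB (86 complete probes) and in STMEI (77), where the median prefix had 66 complete probes. Complete probes next to a member in identifier number were members in 0 of 157 cases one number above and in 0 of 116 one number below. At 6 numbers above and below, which is the same place of the next run, 5 of 137 and 5 of 133 were members, and at 12 numbers above and below 8 of 135 and 8 of 122. Counts above and below are the same pairs of members, read from either end. Of all complete probes 1.84% were members. By place the share was 5.49% at the first, where 95 of the 190 members lay, and 2.32% and 0.415% at the second and sixth, which adjoin it. The counts are therefore not read as a grouping beyond that by place. The median of the mean over the pairs was -0.01 one number above a member, -0.13 one number below, -0.12 and -0.14 at 6 numbers, and -0.15 and -0.13 at 12 numbers above and below. These neighbours were not used in the choice of the members beside them, and no test was made.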
